A study of Homo sapiens with 6 samples.

Results

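The baseline transcriptome of SW1353 cells was described from the 3 control samples of a series of 6. SW1353 is an established human chondrosarcoma line, grown from a malignant cartilage-forming tumour of bone. All control samples were lentivirally transduced with shfirefly, a short hairpin RNA (shRNA) against firefly luciferase, which human cells lack, and were kept at 37 °C in 3% oxygen for 48 h after seeding. The members were chosen by the group label alone, shfirefly, and no measured value entered that choice. The other 3 samples carry a hairpin that the titles name for SIRT1 and were not used here. The design text calls the samples biological replicates; nothing says whether they were separate transductions. The line is 1 tumour's descendants, every sample carries the control hairpin, and no sample at another oxygen level or without virus is used, so levels could be described but no response to oxygen, seeding or infection could be measured.

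Cartilage cells make a matrix of type II collagen fibrils and aggrecan under the control of the transcription factor SOX9, and they live at low oxygen. When oxygen is scarce, prolyl hydroxylases no longer mark the alpha subunits of hypoxia-inducible factor (HIF) for destruction by the VHL ubiquitin ligase. The subunits then pair with ARNT and bind the core motif ACGTG or GCGTG in promoters and enhancers. Their target genes serve glycolysis, acid export, blood vessel growth and collagen modification.

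The control samples held 32044191, 28556696 and 31996688 counts over genes. Levels within a gene are given as counts scaled to the library total (CPM) and levels between genes as TPM, which divides counts by the summed exon length of the gene before scaling; values with ± are means and SDs over the 3 control samples. A count of 0 in a sample allows up to 3 counts, 0.0936 to 0.105 CPM, which covers counting error only. Of 60691 genes listed, 29993 had at least 1 count and 15066 had at least 1 TPM in every control sample, the rule by which a gene is said to be detected below. Among 19915 protein-coding genes, 11829 (59.4%) were detected, the median was 5.04 TPM, 8.55% reached 100 TPM and 16.9% had no count in any sample. Replicate 3 stood apart from the others in genes of low GC content and in genes of the cell cycle, and replicate 2 in antisense genes; the values are given with the spread between samples. Reads in exons that a gene shares with another gene on the same strand appear not to have been counted. Of 247 genes lying wholly in such exons of a partner above 50 CPM, 1 had any count, against 154 of 173 lying wholly opposite a partner's exons. A low value of a gene with shared exons is therefore understated, and no such gene is given as absent.

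Transcripts of matrix, cytoskeleton and glycolysis led the list of abundant genes. By CPM, which favours long transcripts, FN1 (fibronectin) was first with 20259, 19121 and 17658 CPM, GAPDH of glycolysis after it with 13356, 13792 and 12942 CPM and COL6A3, a chain of collagen VI, next with 11262, 10826 and 10291 CPM. Per length the order changed. GAPDH was first with 19981, 20472 and 19355 TPM, followed by TMSB10, an actin-monomer-binding thymosin, with 18337, 18001 and 17347 TPM. The values of GAPDH did not overlap those of TMSB10. The entry in place 3, MIR30A, is described separately. Ferritin heavy chain FTH1 (10065 ± 623 TPM) and beta-actin ACTB (9894 ± 466 TPM) overlapped each other. Below them CPA4, a secreted carboxypeptidase, had 6942 ± 139 TPM. VIM (vimentin, 6144 ± 142 TPM), ENO1 (enolase, 6068 ± 17.6 TPM), the galectin LGALS1 (5548 ± 225 TPM) and ACTG1 (5499.7 ± 209 TPM) followed. With the longest transcript as gene length ENO1 (8803 TPM) and VIM (8328 TPM) exceeded CPA4 (6833 TPM), so the order among these is not settled. The 10 most abundant genes held 9.01 ± 0.24% of all counts and the 100 most abundant held 26.5 ± 0.471%. Ranked by mean CPM, 616 genes held 50% of the counts, and protein-coding genes together held 98.3 ± 0.0619%.

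**Figure D1:**
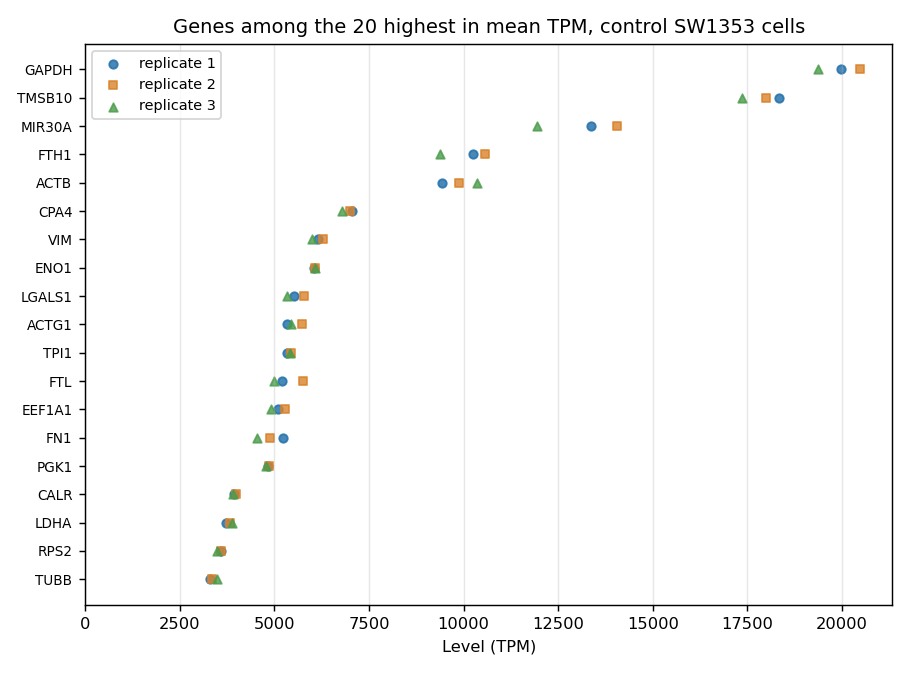
Genes among the 20 with the highest mean TPM, one row per gene and one point per control sample; the x axis is the level in TPM from 0. GAPDH and TMSB10 lie farthest to the right, and most genes have their 3 points close together next to the differences between genes at the top.

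One entry among the 20 genes with the highest mean TPM was not a long transcript. MIR30A, the gene of the microRNA miR-30a, had 6812, 6436 and 6086 counts, or 213, 225 and 190.2 CPM, and its 13114 ± 1071 TPM come from dividing these by an annotated length of 71 bases. The libraries were made for polyadenylated RNA, in which a free hairpin of that size is not a usual product. Its host transcript LINC00472 had 37, 41 and 69 counts over a much longer annotation, and MIR30C2, another hairpin of the family, had none. The hairpin lies on chromosome 6, minus strand, at chr6:71403551-71403621 (GRCh38.p14, RefSeq). It is printed first with both mature arms in capitals, and then each mature arm with its seed, bases 2 to 8, in capitals, because this short stretch is the whole annotated entry. The arms differ in their seeds.
MIR30A: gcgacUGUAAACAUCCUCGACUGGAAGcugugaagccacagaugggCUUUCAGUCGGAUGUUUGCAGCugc
hsa-miR-30a-5p: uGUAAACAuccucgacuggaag
hsa-miR-30a-3p: cUUUCAGUcggauguuugcagc
As background, the miR-30a hairpin is also a common scaffold for shRNAs in expression vectors. The labels give no scaffold for the firefly hairpin, and where the reads of this entry came from was not tested. Genes shorter than 200 bases together took 1.88 ± 0.0835% of all TPM, so every other TPM would be higher by about that share without them.

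A few collagen chains were abundant and most were not. Of 38 collagen chains, 20 were detected and 5 exceeded 1000 TPM, with a median of 1.42 TPM; together they took 0.98 ± 0.0296% of all TPM. Collagen VI, which forms beaded filaments around cells, held the highest chain. Its chain COL6A3 stood at 2558, 2440.0 and 2337 TPM, COL6A2 at 1508, 1538 and 1433 TPM and COL6A1 at 1322, 1329.9 and 1236 TPM. In every sample COL6A3 was the highest chain, COL6A2 exceeded COL6A1, and the ratio of COL6A3 to COL6A1 was 1.89 ± 0.0504. With the longest transcript as gene length COL6A3 was at 3129 and COL6A1 at 1145 TPM, a larger ratio. Among fibril-forming chains, COL1A1 stood at 2040.2, 2090.0 and 2035 TPM and its partner COL1A2 at 485, 477 and 460.2 TPM. Type I collagen contains a pair of alpha 1 chains for each alpha 2 chain. The ratio of the transcripts was 4.33 ± 0.116. With the longest transcript as gene length COL1A1 was at 2101.5 and COL1A2 at 619 TPM, a smaller ratio. COL5A1, which sets fibril diameter together with type I collagen, had 1313, 1274 and 1200.4 TPM, whereas its usual partner COL5A2 had 1.01, 0.936 and 1.22 TPM, and COL3A1, the fibril chain of loose connective tissue, had 1.08, 0.819 and 0.839 TPM. The basement membrane chains COL4A2 (213 ± 4.0 TPM) and COL4A1 (173 ± 2.99 TPM) were detected; taking the longest annotated transcript as gene length gave 443 and 270.3 TPM. COL13A1, a transmembrane collagen, had 126 ± 3.84 TPM and COL7A1, the anchoring fibril chain, 64.3 ± 5.64 TPM.

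The chains that define cartilage were at or near 0. COL2A1, the main fibril of hyaline cartilage, had 2, 1 and 0 counts. COL11A1, which nucleates those fibrils, had 2, 5 and 0 counts, COL9A1 of the fibril surface had 0, 0 and 0 counts, and COL10A1 of hypertrophic cartilage had 1, 2 and 0 counts. At 3 counts or fewer a value cannot be told from the limit that a count of 0 allows. COL11A2 (27, 30 and 25 counts), COL9A2 (21, 12 and 12 counts) and COL9A3 (8, 7 and 6 counts) had reads in every sample but stayed below 1 TPM in each.

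**Figure D2:**
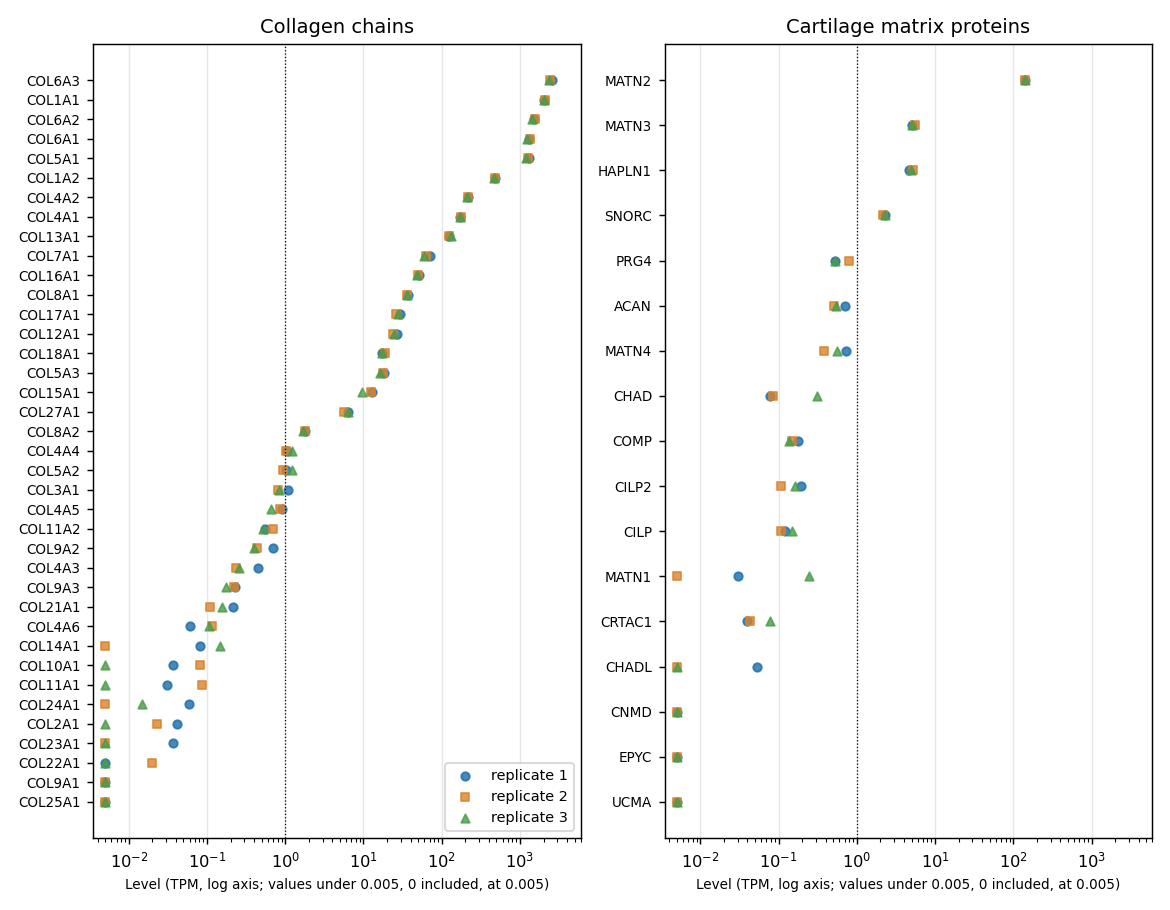
Collagen chains (left) and cartilage matrix proteins (right), one row per gene and one point per control sample, on a log axis of TPM; values under 0.005 TPM, zeros included, are drawn at 0.005 and the dotted line marks 1 TPM. Chains of collagen VI, I and V lie above 1000 TPM, apart from COL1A2, COL5A2 and COL5A3, while COL2A1, COL9A1, COL10A1 and COL11A1 lie at the left.

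Outside the collagens, cartilage matrix proteins were also scarce: 4 of 17 were detected, with a median of 0.155 TPM. Aggrecan ACAN, the core of the large cartilage proteoglycan, had 0.714, 0.511 and 0.549 TPM. COMP, the cartilage oligomeric matrix protein, had 4, 3 and 3 counts, MATN1 1, 0 and 8 counts, and CNMD (chondromodulin), EPYC and UCMA had none in any sample. The detected members were MATN2, a matrilin that is not restricted to cartilage (141 ± 1.34 TPM), MATN3 of cartilage (5.16 ± 0.268 TPM), the link protein HAPLN1 (4.94 ± 0.329 TPM) and SNORC, a small cartilage proteoglycan (2.25 ± 0.0608 TPM). MATN2 thus held most of what the list had. Set against the label, a cartilage-forming tumour line, the defining matrix genes of cartilage, COL2A1 and ACAN, were at or near 0.

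Glycoproteins of the matrix were high: 19 of 25 were detected and 12 exceeded 100 TPM, with a median of 84.5 TPM. FN1, which links integrins to collagen, stood at 5218, 4886 and 4547 TPM, highest in replicate 1 and lowest in replicate 3. SPARC, a collagen-binding glycoprotein of bone and scar, had 2011, 2015 and 1971 TPM. CCN1, a matricellular ligand of integrins, had 1167 ± 29.3 TPM and CCN2, its relative, 109 ± 2.94 TPM. Thrombospondin THBS1 (415 ± 4.79 TPM) and tenascin TNC (409 ± 12 TPM) overlapped each other, and the fibulin-like EFEMP1 (358 ± 3.58 TPM) lay below both. POSTN (periostin, 4, 1 and 0 counts), ELN (elastin, 3, 1 and 0 counts) and SPP1 (osteopontin, 0, 5 and 3 counts), which many mesenchymal cells secrete, were close to 0. Of 11 laminin chains 10 were detected, among them LAMC1 (588 ± 17.7 TPM), LAMB1 (463 ± 12.7 TPM), LAMB3 (344 ± 10.7 TPM) and LAMA1 (187 ± 10.1 TPM). The order of LAMC1 and LAMB1 turned with the longest transcript as gene length, to 439 and 458 TPM.

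Of 25 proteoglycan core proteins 16 were detected and 8 exceeded 100 TPM, most of those at the cell surface. CD44, the hyaluronan receptor, had 605 ± 1.35 TPM, SRGN (serglycin, a secretory granule proteoglycan) 486 ± 18.6 TPM, CSPG4 (NG2) 369 ± 12.6 TPM, AGRN (agrin) 354 ± 17.9 TPM and the glypican GPC1 313 ± 7.86 TPM. Of the small leucine-rich proteoglycans BGN (biglycan) had 248 ± 9.14 TPM, whereas DCN (decorin) had 2, 0 and 5 counts, LUM (lumican) 0, 2 and 0 counts, and OGN and ASPN none. VCAN, versican, stood at 0.816, 0.784 and 1.13 TPM.

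Genes for the modification, crosslinking and secretion of collagen, not all of them enzymes, were abundant as a group. Of 24, 22 were detected, the median was 198 TPM and 7 exceeded 1000 TPM. They took 1.3 ± 0.0281% of all TPM, more in every sample than the collagen chains. Lysyl oxidases crosslink collagen outside the cell. LOX stood at 2355, 2306 and 2229 TPM, LOXL2 at 1600.0, 1562 and 1511 TPM and LOXL3 at 1050.1, 1037 and 994 TPM, while LOXL1 had 2.1 ± 0.718 TPM and LOXL4 0, 1 and 0 counts. LOX was the highest of the family in every sample, but with the longest transcript as gene length LOXL2 took the largest share (39.9% against 39.7% for LOX), so their order is not settled. The lysyl hydroxylase PLOD2, which prepares the telopeptide crosslinks, stood at 1250.0, 1226 and 1279 TPM, above PLOD1 (841 ± 28.9 TPM) and PLOD3 (227 ± 8.61 TPM) in every sample. Among the alpha subunits of prolyl 4-hydroxylase, P4HA1 took 80.9 ± 0.343% of the summed TPM with 1103, 1092 and 993 TPM, and P4HA2 had 249 ± 10.1 TPM. With the longest transcript as gene length P4HA2 was at 444 TPM and the share of P4HA1 was 64.6%. Their shared beta subunit P4HB had 2091 ± 46.4 TPM and the collagen chaperone SERPINH1 415 ± 5.21 TPM.

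Matrix metalloproteinases took 0.182 ± 0.00709% of all TPM, and plasminogen activators and cathepsins 0.229 ± 0.00647%. PLAT (tissue plasminogen activator) and PLAU (urokinase) had 51.9 ± 1.74 TPM and 3.79 ± 0.777 TPM. Of the inhibitors, TIMP3, a matrix-bound inhibitor of metalloproteinases, had 2437, 2336 and 2112 TPM, with TIMP1 at 775 ± 17.5 TPM and TIMP2 at 362 ± 10.5 TPM. Of 20 metalloproteinases, 15 were detected and 2 exceeded 100 TPM. These were the gelatinase MMP2 (1046, 1037 and 970.1 TPM) and its membrane-bound activator MMP14 (694, 675 and 639 TPM). The collagenases that cut cartilage collagen were low, MMP13 at 1.62, 1.2 and 2.26 TPM and MMP1 at 11.6, 9.75 and 9.27 TPM, and the stromelysin MMP3 had 47.3 ± 1.47 TPM. The aggrecanases ADAMTS4 and ADAMTS5 had 3, 0 and 1 counts and 1, 0 and 0 counts. Cathepsins B and L, lysosomal proteases, had 978 ± 35.5 TPM for CTSB and 511, 509 and 475 TPM for CTSL, while CTSK, the collagenolytic cathepsin of osteoclasts, had 5.29 ± 0.548 TPM. Of 24 integrin chains, the receptors for this matrix, 16 were detected. ITGB1 (1837 ± 16.9 TPM), ITGA3 (1823 ± 58.1 TPM, a laminin receptor) and ITGA5 (1008 ± 35.6 TPM, the fibronectin receptor) exceeded 1000 TPM on average, and ITGA10, a collagen receptor of cartilage cells, had 25 ± 1.69 TPM.

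Of 15 genes of the oxygen-sensing machinery 14 were detected; the other, HIF3A, the other alpha subunit, had none in any sample. HIF1A stood at 702, 672 and 775 TPM and EPAS1, which encodes HIF-2α, at 279, 277 and 242 TPM, so that HIF1A exceeded EPAS1 2.71 ± 0.423-fold. Replicate 3 was highest in HIF1A and lowest in EPAS1. The transcript levels say nothing about the proteins, which oxygen controls by degradation. Their partner ARNT had 32.2 ± 1.46 TPM, far below either, the ligase subunit VHL 56 ± 1.82 TPM and HIF1AN, the asparagine hydroxylase, 18.6 ± 0.614 TPM. Among the prolyl hydroxylases EGLN3, itself a HIF target, stood at 498, 498 and 471 TPM and took 94.2 ± 0.101% of the family's TPM; EGLN1 had 26.6 ± 0.894 TPM, and EGLN2, at 3.5 ± 0.403 TPM, is understated because 30.6% of its exon length is shared. With the longest transcript as gene length EGLN3 was at 885 TPM, again the highest of the family.

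Glycolysis held a large part of the transcripts. Its 35 genes took 4.82 ± 0.0633% of all TPM, against 5.92 ± 0.159% for 78 cytosolic ribosomal protein genes. Of the glycolysis genes 24 were detected, with a median of 87.8 TPM, and 2 had no count. From the entry of glucose onward, the transporter SLC2A1 (GLUT1) stood at 723, 737 and 681 TPM and SLC2A3 (GLUT3) at 230.1, 218 and 197 TPM. The first enzyme was mostly HK1 (489.9, 487 and 488 TPM), and HK2, the hexokinase best known as a HIF target, took 15.2 ± 0.446% of the family with 87.8 ± 3.2 TPM. Phosphofructokinase was mostly the platelet type PFKP (587 ± 2.58 TPM). Of the enzymes that set the level of its activator fructose 2,6-bisphosphate, PFKFB4 had 269.5, 268 and 266 TPM and PFKFB3 93, 90.0 and 88.3 TPM, and their values did not overlap.

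The lower part of the pathway, from triose phosphate to lactate, carried most of its transcripts. TPI1 stood at 5337, 5450.1 and 5409 TPM, GAPDH at the values above, PGK1, the first enzyme to yield ATP, at 4831, 4871 and 4769.9 TPM, PGAM1 at 1155 ± 15.8 TPM and ENO1 at 6048, 6081 and 6076 TPM. ENO2, the enolase of neurons that is also induced by hypoxia in other cells, had 967, 928 and 914 TPM, or 13.4 ± 0.373% of the enolases. PKM, pyruvate kinase, had 2659.7 ± 43.8 TPM. LDHA, which makes lactate from pyruvate, stood at 3729, 3824 and 3875 TPM. LDHB, whose enzyme favours the reverse reaction, had 5.97, 3.9 and 4.25 TPM; 33.4% of its exon length is shared with another gene, so its value is understated, and LDHA took 99.9 ± 0.0308% of the family. With the longest transcript as gene length LDHA was at 6860.0 and PKM at 5295 TPM. Aldolase A, ALDOA, at 34.6 ± 2.78 TPM, is not interpretable, since 42.3% of its exons are shared; ALDOC, the aldolase of brain, had 481 ± 10.2 TPM. Other isoforms of liver, muscle and testis were at or near 0: PKLR 0, 1 and 0 counts, PGAM2 1, 0 and 1 counts, LDHC 0, 0 and 2 counts, and PGK2 and the liver transporter SLC2A2 none.

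**Figure D3:**
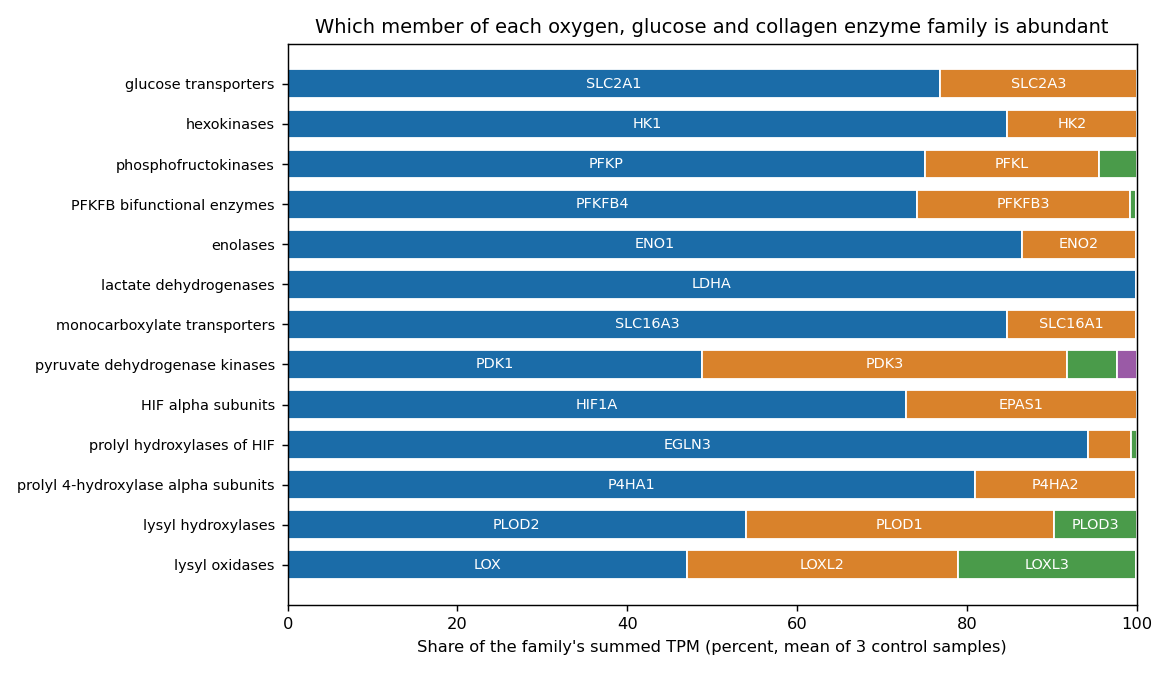
Share of the summed TPM of each enzyme or subunit family held by its members, in percent, as the mean of the 3 control samples; each bar is a family, each colour a member in order of share, and members above 9% are named. A single member fills most of the bar in families such as the lactate dehydrogenases (LDHA) and the prolyl hydroxylases of HIF (EGLN3), while PDK1 and PDK3, the lysyl hydroxylases, and LOX, LOXL2 and LOXL3 divide theirs.

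Genes that handle pyruvate, lactate and acid were transcribed as well. SLC16A3 (MCT4), the exporter of lactate, stood at 415, 425 and 412 TPM, with its chaperone BSG (basigin) at 695 ± 11 TPM, and SLC16A1 (MCT1) at 74.9 ± 2.94 TPM. Carbonic anhydrase CA9, which works on the outer face of the membrane, stood at 599, 628 and 586 TPM and CA12 at 213, 207 and 190.1 TPM; the ratio was 2.97 ± 0.14. CA2 of the cytosol had 2, 5 and 4 counts. Of the kinases that hold pyruvate dehydrogenase inactive, PDK1 had 57.5 ± 0.746 TPM and PDK3 50.7 ± 0.112 TPM, and PDK4, a kinase of the fasting response, had 2.71 ± 0.568 TPM.

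Hypoxia-inducible genes outside glycolysis were nearly all present. Of 34, 33 were detected, 23 exceeded 100 TPM and the median was 263 TPM; since no normoxic sample is used, these are levels and not an induction. NDRG1, a stress-induced gene that is among the most sensitive to low oxygen, stood at 2427, 2422 and 2101 TPM, lowest in replicate 3, and at 4002 TPM on average with the longest transcript as gene length. IGFBP3, a binder of insulin-like growth factors, had 1276 ± 59.3 TPM. DDIT4, an inhibitor of mTORC1, had 1036 ± 40.9 TPM, and BNIP3L and BNIP3, receptors that direct mitochondria to autophagy, had 1006 ± 29.4 TPM and 916 ± 3.54 TPM. ERO1A, an oxidase of the endoplasmic reticulum, had 719 ± 11.1 TPM. VEGFA, the main growth factor of blood vessels, stood at 451, 409.5 and 430.1 TPM. MIR210HG, host of the hypoxic microRNA miR-210, had 63.5 ± 6.19 TPM and ADM, adrenomedullin, 82.3 ± 0.624 TPM. The exception below detection was ANGPTL4, an inhibitor of lipoprotein lipase that hypoxia induces in many cells, with 11, 9 and 9 counts. EPO, the red-cell hormone best known as a HIF-2α target, had 18, 17 and 18 counts and 1.88, 1.98 and 1.89 TPM. PLIN2, a lipid droplet protein, had 4.18 ± 0.268 TPM. Of the cytochrome oxidase subunits that hypoxia or tissue identity exchanges, COX4I1 had 202 ± 2.14 TPM against 0, 1 and 0 counts for COX4I2, and NDUFA4 had 122 ± 3.03 TPM against 3.03 ± 0.624 TPM for NDUFA4L2.

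Promoter letters of 5 abundant genes, chosen after their values were seen, are shown to place the ACGTG form of the HIF core motif. RefSeq promoter windows (GRCh38.p14), each running from 250 bases before to 50 after a transcript start, were searched for ACGTG on both strands. The form GCGTG was not searched, so all matches, shares and capitals below cover ACGTG alone. On the printed strand a match can therefore read as its reverse complement, and where matches on both strands overlap they are counted as 2. The motif stood in a window of 24.9% of 27305 genes and 32.3% of the 10142 detected ones. It stood in windows of 14 of 30 glycolysis genes and 18 of 27 hypoxia-inducible genes outside glycolysis that had a window. The printed stretches are the parts of these windows that hold the matches, with flanks, on the strand of the gene, and the capitals mark the motif. They are CA9 at chr9:35673880-35673944 (plus strand), PGK1 at chrX:78104016-78104297 (plus strand), LDHA at chr11:18394348-18394524 (plus strand), BNIP3 at chr10:131982022-131982087 (minus strand) and PLOD2 at chr3:146161296-146161414 (minus strand).
CA9: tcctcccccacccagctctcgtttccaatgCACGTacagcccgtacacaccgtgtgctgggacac
PGK1: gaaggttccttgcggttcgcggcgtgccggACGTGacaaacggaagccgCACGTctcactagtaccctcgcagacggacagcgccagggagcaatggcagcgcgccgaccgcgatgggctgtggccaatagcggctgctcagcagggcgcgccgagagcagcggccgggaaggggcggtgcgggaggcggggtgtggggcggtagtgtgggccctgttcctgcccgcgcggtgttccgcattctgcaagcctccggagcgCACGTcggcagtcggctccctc
LDHA: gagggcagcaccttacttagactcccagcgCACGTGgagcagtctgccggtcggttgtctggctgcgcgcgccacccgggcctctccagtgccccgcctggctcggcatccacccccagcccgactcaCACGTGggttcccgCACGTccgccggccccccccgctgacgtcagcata
BNIP3: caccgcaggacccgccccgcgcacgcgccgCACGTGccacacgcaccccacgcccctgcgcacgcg
PLOD2: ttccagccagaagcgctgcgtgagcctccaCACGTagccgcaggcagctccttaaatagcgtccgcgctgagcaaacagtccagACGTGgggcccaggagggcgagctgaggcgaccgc
The 5 genes stood at 604, 4824, 3809, 916 and 1252 TPM on average, in that order, while CA9 had 1 match and LDHA 5. A match describes the letters and is neither a bound site nor a cause. ENO1, EGLN3 and SLC2A1 were abundant with no match to ACGTG in their windows.

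Regulators of cartilage identity were low as a list, with some, SOX9 among them, above the median of all protein-coding genes. SOX9 stood at 46.6, 49.5 and 45.7 TPM, RUNX1 at 52.4 ± 0.846 TPM and RUNX2, the regulator of hypertrophy and bone, at 19.5 ± 0.154 TPM. SOX5 and SOX6, which act with SOX9 on COL2A1 and ACAN, had 1, 0 and 0 counts and 4, 3 and 2 counts. BARX1, a homeobox gene of joint and jaw mesenchyme, had 16.2 ± 2.73 TPM and NKX3-2, a repressor of hypertrophy, 3.5 ± 0.886 TPM. In all, 12 of 22 chondrocyte regulators were detected with a median of 2.4 TPM, against 5.04 TPM over all protein-coding genes. Of 15 markers of hypertrophic cartilage and bone 5 were detected. SP7, IBSP, DMP1 and MEPE had no count and ALPL 8, 13 and 12 counts, while DLX5, a homeobox gene of osteoblasts, had 17 ± 0.901 TPM.

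General mesenchymal genes were the strongest of the lineage lists, with 20 of 23 detected and a median of 36.3 TPM. VIM stood at 6154, 6281 and 5998 TPM. ENG (endoglin) had 780.2 ± 14.4 TPM, NT5E (CD73) 448 ± 5.6 TPM and CDH2 (N-cadherin) 313 ± 0.564 TPM. By contrast, 2 genes that fibroblasts and mesenchymal stromal cells usually carry were near 0, THY1 (CD90) with 3, 0 and 0 counts and PRRX1, a limb mesenchyme regulator, with 17, 7 and 9 counts. SNAI2 (76.1 ± 2.76 TPM) and TWIST1 (18.1 ± 0.864 TPM), transcription factors of mesenchyme, were detected.

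**Figure D4:**
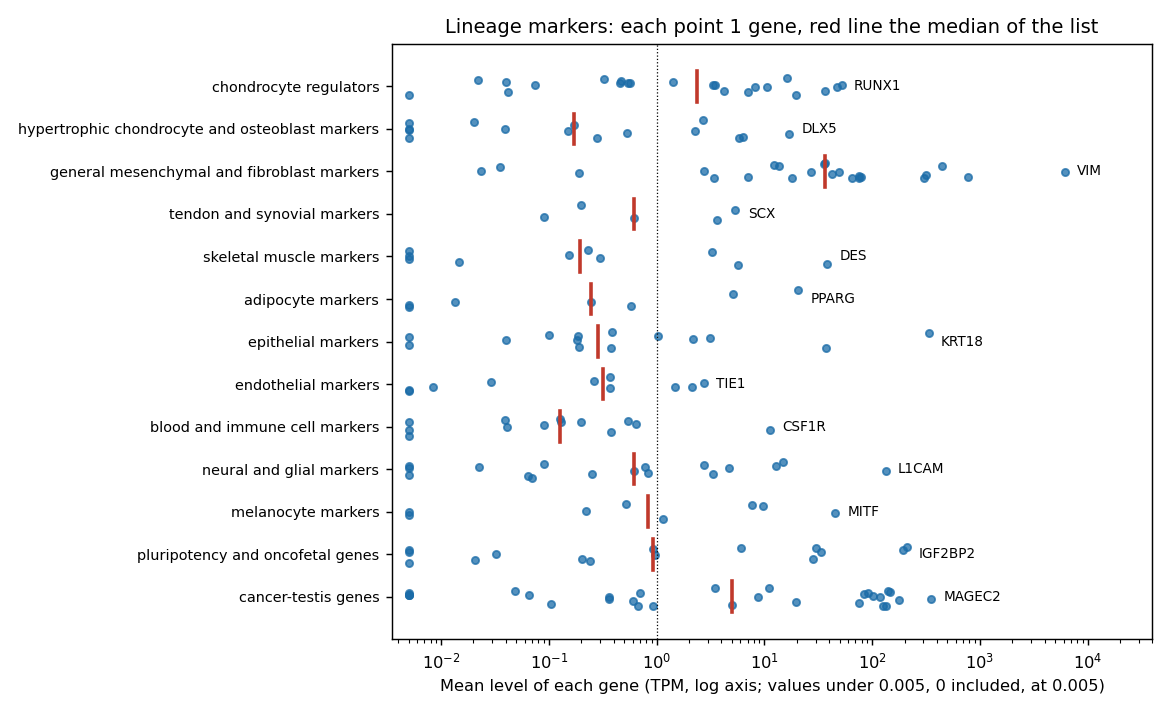
Mean level of every gene of the lists named on the left, HOX and limb genes not drawn, on a log axis of TPM, 1 point per gene, with the list's median as a red line and its highest gene named; values under 0.005 TPM, zeros included, are drawn at 0.005 and the dotted line marks 1 TPM. Of the lists drawn, medians exceed 1 TPM in chondrocyte regulators, mesenchymal markers and cancer-testis genes.

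Markers of other cell types were low as lists, with single genes that stood out, among them DES (desmin, 38.5 ± 1.97 TPM), the intermediate filament of muscle. Endothelial markers were detected in 3 of 10, none above 2.75 TPM (TIE1), and the defining CDH5 had 0, 1 and 0 counts. Blood and immune markers were detected in 1 of 13, the exception being CSF1R (11.3 ± 0.813 TPM), and PTPRC (CD45) had 0, 1 and 7 counts. TBXT (brachyury), the notochord factor that marks chordoma, had 0, 0 and 0 counts. Of the epithelial markers EPCAM had 3, 3 and 4 counts and CDH1 (E-cadherin) 13, 6 and 5 counts, yet the keratin KRT18 had 334 ± 7.95 TPM and its partner KRT8 37.2 ± 0.153 TPM, a ratio of 8.99 ± 0.181. With the longest transcript as gene length KRT18 was at 361 and KRT8 at 62.6 TPM, a smaller ratio. MITF, the melanocyte and osteoclast factor, had 45.5 ± 3.39 TPM, with the pigment genes TYR and MLANA at 0. L1CAM, a neural adhesion molecule, had 134 ± 6.69 TPM, with the glial factor SOX10 at 0.

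Cancer-testis genes, which are normally restricted to germ cells and often active in tumours, were transcribed in part. Of 29, 16 were detected, where 59.4% of all protein-coding genes were. At least 100 TPM was reached by 8 of the 29, and by 8.55% of all protein-coding genes. MAGEC2 stood at 347, 350.3 and 359 TPM, MAGEA6 at 172, 174 and 185 TPM, PAGE5 at 147 ± 2.99 TPM, MAGEA12 at 141 ± 7.91 TPM and SSX1 at 118 ± 6.83 TPM. The families were not uniformly on, since MAGEA4 had 6, 7 and 10 counts and PRAME 3.5 ± 0.261 TPM. MAGEA3 and MAGEA6, the GAGE genes, and CTAG1A, CTAG1B and MAGEA2 (all 3 at 0) have near-identical copies, so that their counts cannot be divided with certainty and their zeros cannot be read. Of 15 pluripotency and oncofetal genes 6 were detected, with a median of 0.923 TPM. Only IGF2BP2 (209.7 ± 0.574 TPM) and HMGA1 (194 ± 4.87 TPM) of this list exceeded 100 TPM. The IGF2BP2 relatives IGF2BP3 and IGF2BP1 had 28.5 and 0.242 TPM on average. The pluripotency factors POU5F1, SOX2 and NANOG had 0, 0 and 2 counts, 0, 1 and 0 counts and 0, 0 and 0 counts.

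HOX genes, which record position along the body axis, were detected in 29 of 41 entries with a median of 5.35 TPM. HOXB9 (43.4 ± 1.84 TPM), HOXB2 (35 ± 2.95 TPM), HOXC10 (34.9 ± 2.33 TPM), HOXA10 (28.3 ± 1.46 TPM), HOXA9 (26 ± 0.668 TPM) and HOXC13 (23.2 ± 1.51 TPM) had the highest values at this gene length. HOXA11, which patterns the middle limb segment, had 0, 0 and 1 counts, and HOXD12 had none. As background, SW1353 came from a tumour of the upper arm bone. The limb factor TBX5 of the arm had 1.45 ± 0.351 TPM, TBX4 of the leg 0, 0 and 2 counts, and PITX1, a leg factor that also acts in cartilage, 10.7 ± 0.597 TPM.

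Genes of chondrosarcoma biology and the cell cycle were transcribed broadly, 25 of 26; the other, MYCN, had 0, 0 and 0 counts. IDH1 stood at 143, 144 and 150.4 TPM and IDH2 at 108, 110.5 and 113 TPM, the metabolic enzymes mutated in many cartilage tumours; no variant is assessed here. EXT2 (184 ± 2.03 TPM) and EXT1 (110.4 ± 3.05 TPM) make heparan sulfate. CCND1 had 258 ± 4.8 TPM, MYC 121 ± 4.3 TPM and CDKN1A (p21) 236 ± 12.3 TPM. On the short arm of chromosome 9, a region often deleted in these tumours, CDKN2A had 26.7 ± 1.93 TPM, CDKN2B 24.7 ± 1.65 TPM and MTAP 11 ± 0.549 TPM, so reads of the locus were present; with the longest transcript as gene length CDKN2A was at 63.1 TPM. TERT, the telomerase subunit, had 1.64 ± 0.058 TPM. Among growth factor receptors AXL (1286, 1289 and 1255 TPM) and MET (811, 799 and 804 TPM) were highest, followed by NRP1 (247 ± 6.0 TPM) and EGFR (185 ± 7.64 TPM); KIT had 3, 3 and 2 counts and ERBB4 none.

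Genes of NAD+ metabolism, the subject of the series' title, were modest in level. NAMPT, the rate-limiting enzyme of the nicotinamide salvage route, stood at 185, 179.7 and 178 TPM, and NAPRT, which starts the route from nicotinic acid, at 2.67, 1.51 and 3.21 TPM. NMNAT1 and NMNAT2, which complete NAD+, had 7.74 ± 0.831 TPM and 8.6 ± 0.325 TPM, and NMNAT3 0, 0 and 0 counts. The enzymes of synthesis from tryptophan were near 0, IDO1 with 2, 1 and 0 counts, TDO2 with 0, 1 and 0 counts and HAAO with none. Among consumers NNMT, which methylates nicotinamide, had 148 ± 6.02 TPM, PARP1 82.9 ± 6.03 TPM and CD38 6, 4 and 9 counts. The 7 sirtuins ranged from 1.85 ± 0.0454 TPM for SIRT4 to 24.7 ± 2.79 TPM for SIRT6. SIRT1 stood at 24.4, 22.8 and 22.8 TPM, and SIRT6, SIRT1 and SIRT2 (22.9 ± 1.34 TPM) overlapped. With the longest transcript as gene length SIRT1 was at 18.2 TPM, or 15.5% of the sirtuins. It then lay below SIRT6 (25%), SIRT2 (18.01%), SIRT7 (16.9%) and SIRT3 (16.7%), so the place of SIRT1 among the sirtuins is not settled.

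Among housekeeping genes, the cytoskeletal list took 6.73 ± 0.0659% of all TPM, more than the ribosomal proteins in every sample, but with the longest transcript as gene length the order turned, to 6.57% against 7.19%. All 78 cytosolic ribosomal protein genes were detected, with a median of 516 TPM, led by RPS2 (3556 ± 55.9 TPM) and RPS12 (2858 ± 146 TPM). Low ones among them, RPS10 (29, 19 and 34 counts), RPL36A (6.27 ± 1.25 TPM) and RPL17 (6.84 ± 0.462 TPM), share exons or near-identical copies with other genes, and EEF1G at 0 lies wholly within shared exons. Of 18 genes used as references in quantitative PCR, GAPDH and PGK1 are themselves glycolysis genes. Among them B2M of class I antigen presentation had a coefficient of variation in CPM (CV, the SD as a percent of the mean) of 1.25%. The CV was 1.32% for YWHAZ, a 14-3-3 adaptor protein, 4.73% for ACTB and 6.3% for RPL13A. Over the 17 of these references at 5 CPM or more the median CV was 2.91%, from 0.132% to 6.3%. The class II antigen presentation gene HLA-DRA was low (2.08 ± 0.85 TPM). Of 45 secreted signals 26 were detected. TGFB1 had 439 ± 20.1 TPM and VEGFB 314 ± 13.6 TPM, while IL6 had 23, 17 and 11 counts, CXCL12 0, 4 and 3 counts, IGF1 2, 0 and 5 counts and the BMP antagonist GREM1 none. Of the AP-1 factors, FOSL1 stood at 575, 592 and 588 TPM and FOS, which serum induces briefly, at 2.06, 2.11 and 2.02 TPM.

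The 3 control samples were close to each other. Over 10696 genes of at least 5 CPM the median CV was 4.53%, and 67 genes exceeded 25%. The counting error expected from each gene's mean count had a median of 3.14%. A CV from 3 samples tends to fall below the true spread, so these medians do not measure the excess over counting exactly. The SD of the log2 ratio was 0.12 between replicates 1 and 2, 0.15 between 1 and 3 and 0.16 between 2 and 3, so replicate 3 was the farther one. A chi-square statistic per gene, 1 where samples differ by sampling noise alone, was 2.2, 4.03 and 4.16 for the same pairs, and each sample was counted as a replicate. The common biological coefficient of variation, edgeR's estimate of the spread beyond counting, was 0.0557, and 0.0335 without replicate 3. Glycolysis genes had a median CV of 2.23% over 22 genes. The CV fell with abundance, to a median of 2.82% over genes of 100 to 1000 CPM and 2.44% above 1000 CPM, so these abundant genes lay near the values of their level. The lowest CVs of all were those of UXS1, an enzyme that makes UDP-xylose for proteoglycans (45.9, 45.9 and 45.9 CPM), the RNA-binding GRSF1 (160.2, 160.3 and 160.4 CPM), and NUCKS1 and PABPC1. BNIP3 and the NAD+ hydrolase SARM1 were also among the 10 lowest. These CVs are below the counting error, which the lowest of many ranked genes can reach.

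Replicate 3 differed in cell cycle genes. Of 24 S-phase and mitosis genes 23 were highest in replicate 3, where 44.5% of all genes of at least 5 CPM were. With TMM or median-ratio scaling the count was 22, against 35.9% and 35.7% of all genes. TOP2A, which untangles chromosomes, stood at 326, 329.6 and 449 CPM, MKI67, the proliferation antigen Ki-67, at 317, 314 and 447 CPM, and KIF18A, a mitotic kinesin, at 9.71, 7.95 and 14.8 CPM. Replicate 3 lay above the others in each. The list's summed level was 3373, 3396 and 3846 TPM. Beside this, GC content moved with the same sample. Protein-coding genes were divided into 5 equal classes by GC content. In the class of lowest GC content replicate 3 exceeded the mean of the others by a median of 0.10 on the log2 scale, and in the class of highest GC content it lay at -0.01. From GC class 1, the lowest, to class 5, cell cycle genes highest in replicate 3 were 5 of 5, 5 of 6, 7 of 7, 5 of 5 and 1 of 1. Of all protein-coding genes of these classes, 68.8%, 49.3%, 38.3%, 35.7% and 30.04% were highest there. The log2 deviation of replicate 3 from the others in the cell cycle genes was 0.455, 0.156, 0.159, 0.0844 and 0.115 in the same order. It was thus largest in the class of lowest GC content and above 0 in every class. The part of GC content in the values of single genes was not tested.

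Ribosomal protein genes leaned to replicate 2. Of 75 at 5 CPM or more 63 were highest there, against 25.9% of all such genes. RPS12 is an example, at 483, 524 and 472 CPM. With TMM scaling the count was 67, against 35.2% of all genes, and with median-ratio scaling 69, against 36.9%. The differences were small, a median CV of 3.64%. Over 10120 protein-coding genes, the log2 deviation of replicate 2 from the others had a Spearman correlation of -0.219 with the longest transcript's length. For replicates 1 and 3 this correlation was 0.0659 and 0.0989. With GC content the correlation was 0.181, 0.252 and -0.315 for replicates 1, 2 and 3. The median GC content of the 75 ribosomal protein genes was 48.1%, against 47.9% over all genes of at least 5 CPM. The part of transcript length or GC content in the ribosomal counts was not tested. Collagens leaned the other way from the cell cycle genes: 1 of 18 was highest in replicate 3, against the 44.5% of all genes. The median GC content of these collagens was 60.7%, and in the class of highest GC content 608 of 2024 protein-coding genes were highest in replicate 3; the part of GC content in this count was not tested.

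The largest CVs belonged mostly to genes of low GC content, and to some antisense genes. Among the 50 genes with the highest CV, 48 were highest in replicate 3, against 44.5% of all genes of at least 5 CPM. The median GC content of the 50 was 38.4% against 47.9% over all genes of at least 5 CPM. FAM111B, a protease of replicating cells, stood at 3.53, 4.52 and 7.44 CPM and SMC3, a cohesin subunit, at 25.5, 24.1 and 43.9 CPM. Of these 50 genes, 22 were lowest in replicate 1, 28 in replicate 2 and 0 in replicate 3. Over all genes of at least 5 CPM 38.8% were lowest in replicate 2. That share is no measure for the 50, of which 48 were highest in replicate 3 and could not be lowest there. The 50 include 8 that are not protein-coding, of which 7 were lowest in replicate 2. Of the 42 protein-coding ones 21 were. Among the antisense ones AC011603.3 stood at 19.2, 11.1 and 26.3 CPM, AC145207.3 at 9.83, 5.01 and 11.3 CPM and AC006064.4 at 90.3, 46.4 and 96.3 CPM.

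AC006064.4 lies wholly opposite exons of GAPDH, and its counts were 0.676%, 0.337% and 0.744% of the GAPDH counts. The same held for most other pairs. Over 14 antisense genes that lie wholly opposite exons of a gene above 500 CPM, the summed counts were 0.491%, 0.255% and 0.534% of those of their partners. AC006064.4 supplied 2895, 1326 and 3080 of these 4384, 2057 and 4639 antisense counts. Of the 11 pairs with at least 100 antisense counts, replicate 2 had the lowest percentage in 11. Below 100 counts, AC011611.4 opposite PHLDA1 went the other way, at 0.0468%, 0.0874% and 0.0247%. In the 11 pairs the percentages thus moved together with the sample. Whether the antisense counts are transcripts of their own was not tested.

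**Figure D5:**
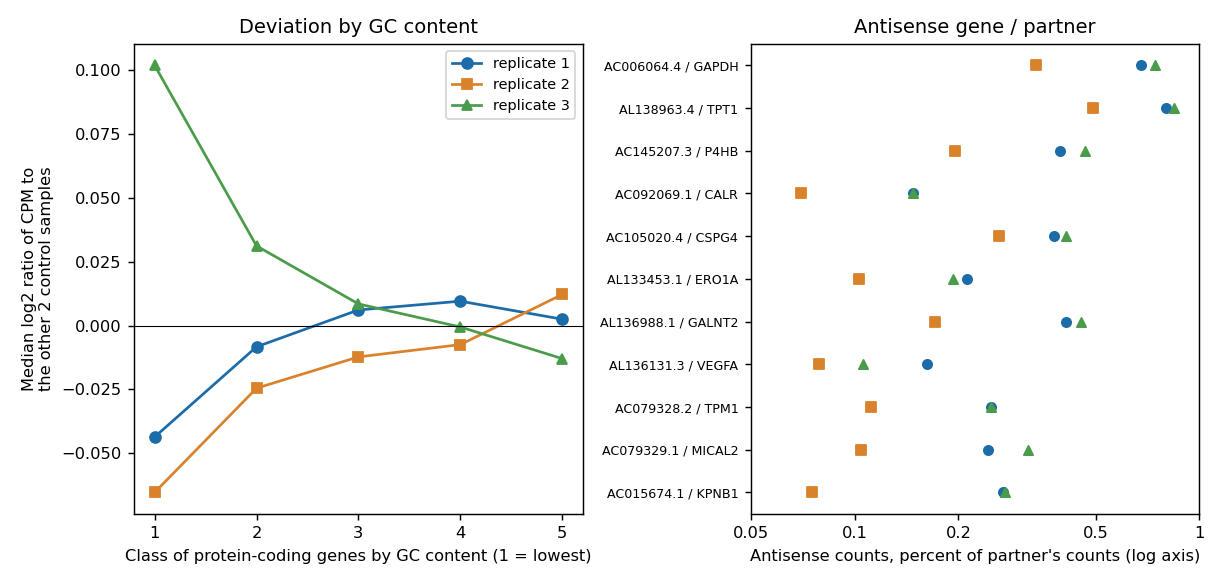
Left, median log2 ratio of each control sample's CPM to the mean log2 CPM of the other samples, by class of protein-coding genes in order of GC content. Right, counts of antisense genes as a percentage of the counts of the gene they lie opposite, on a log axis, 1 row per pair and 1 point per sample. Replicate 3 lies highest in the class of lowest GC content, and replicate 2 lies farthest left in each of the 11 pairs.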

How the data were processed

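Raw counts per gene of 3 shfirefly control samples were used. Per the labels, RNA was extracted with TRI reagent and made into stranded libraries of polyadenylated RNA (TruSeq), and the deposited counts are of reads aligned to GRCh38. The submitters' processing notes name Trimmomatic, STAR and DESeq2 without versions. The read counter, like its setting for shared exons, is not given in the sources used here. Depth was 28556696 to 32044191 counts per sample, which sets the floors in the text.

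From the counts, CPM was computed over each library's total and TPM with the union of a gene's exons in GENCODE 29, matched by Ensembl gene (58504 of 60691 entries). Nothing was compared between groups and no test was made. The spread was described by the CV of CPM over genes whose mean reached 5 CPM, and by edgeR's common dispersion, a step tested on simulated data. Tools were Python 3.11.15 with pandas 2.3.3, NumPy 2.4.6, SciPy 1.17.1 and Matplotlib 3.10.9, and R 4.3.3 with edgeR 4.0.16 and DESeq2 1.42.0 (size factors only).

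Named were the 20 genes highest in mean TPM and in mean CPM, marked genes of each list with up to 4 further members of highest TPM, list members with no count, and the 10 genes of highest and of lowest CV; others named were chosen after their values were seen. The lists hold 984 genes in 58 roles, 968 of them matched. The members and lists were chosen with earlier results of these data known. Alternatives were another gene length, other scalings, other filters, and leaving out each replicate. Sequences are RefSeq's. A few genes that these rules name are not reported here.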

Additional observations from a re-analysis of the deposited data

How the results depend on the processing

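No paired analysis was possible because a single group was described and no groups were compared. With the longest annotated transcript as gene length, the share of all TPM was 1.17% for matrix glycoproteins, 5.86% for glycolysis, 1.83% for hypoxia-inducible genes outside glycolysis, 1.09% for collagens and 7.19% for ribosomal proteins, and 28 of 285 named genes moved by more than 1.5 times. Without genes under 200 bases, an alternative chosen after seeing the data, glycolysis took 4.91%. The median CV was 4.59% with TMM factors, 4.62% with median-ratio size factors, 5.61% over genes of at least 1 CPM, 3.66% over genes of at least 20 CPM and 23.7% with no filter. Leaving out 1 replicate gave a median CV of 3.0 to 4.16% and a common biological coefficient of variation of 0.0335 to 0.0657, both lowest without replicate 3. Depth limits the genes at a few counts, whose values cannot be told from 0.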

Other observations

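Keratins, a family chosen after its values were seen, were led by a hair keratin. KRT81 stood at 2328, 2471 and 2563 TPM, above KRT18, while EPCAM and CDH1 were near 0. Among long intergenic RNAs, also ranked after the values were seen, UCA1 was first with 543 ± 11.9 TPM, followed by NORAD with 266 ± 8.94 TPM. FOXA2, an endoderm and notochord factor, had 8.12 ± 1.04 TPM beside TBXT at 0.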
